A study of Mus musculus with 12 samples.

Results

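The genes described here are the 33 that carry proteins into the endoplasmic reticulum (ER) and trim them on arrival: the signal recognition particle and its receptor, the Sec61 channel and its partners, the translocon-associated protein complex, the signal peptidase complex, signal peptide peptidase and the tail-anchor insertion factors. They were chosen by symbol, as known parts of this machinery, from the 24325 gene symbols listed in each file. Of the 33, 30 were listed under their own symbol. Hm13, Camlg and Ubl4 are RefSeq synonyms of the listed symbols H13, Caml and Ubl4a, which are used below. RNA came from splenic B cells of C57BL/6 mice, purified with anti-B220 beads, cultured with 25 µg/ml lipopolysaccharide (LPS) and sorted on day 4. All mice carried 1 Prdm1 allele with a green fluorescent protein (GFP) reporter (Prdm1+/gfp), so every group, controls included, had this allele. The genotypes were Mzb1+/+ (wild type, wt) and Mzb1-/- (knockout, ko). Cells negative for CD138 and for the Blimp1 reporter were activated B cells, cells positive for the reporter alone were pre-plasmablasts, and cells positive for both were plasmablasts. There were 12 libraries, 2 for each of the 6 groups. The labels give no age or sex of the mice, and they do not say that the replicates came from separate animals, so the p-values measure the spread between these libraries, which may be technical in ko; in wt the replicates differ in Xist (below).

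A secreted or membrane protein is marked by a signal sequence that the signal recognition particle (SRP) binds as it leaves the ribosome. SRP docks at its receptor on the ER, the chain passes through the Sec61 channel, and signal peptidase cuts the signal sequence off in the ER lumen. Membrane proteins anchored by their C-terminal end are made first and then inserted by a separate tail-anchor pathway. Plasma cells secrete antibody in bulk, and the machinery of the ER is known to expand as B cells become plasma cells. Mzb1 is a co-chaperone of the ER chaperone Grp94.

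The deposited values were FPKM, fragments scaled by transcript length and library size, which gives a level per length. Setting such levels side by side between genes is rough, since reads of genes with near-identical copies can be miscounted. The 12 libraries held 418966 to 581262 FPKM in total and 10180 to 10466 genes at 1 FPKM or more. Mzb1 stood at 931 ± 121, 9996.2 ± 99 and 16396.3 ± 1360 FPKM (mean ± SD, n = 2) in wt libraries of activated B cells, pre-plasmablasts and then plasmablasts, and at 281 ± 11.9, 885 ± 19.9 and 967 ± 57.8 FPKM in the ko groups. The ko libraries were therefore lower than the wt libraries of the same population but not at 0, and the labels do not say which part of the gene is deleted. Small RNA genes took 0.982% to 14.2% of a library's total, the most in ko pre-plasmablast replicate 2. Low values followed 1 fragment pattern in 8 libraries, which included all 6 wt libraries, and another in 4 (replicate 2 of ko activated B cells and ko pre-plasmablasts, and both ko plasmablast libraries). In plasmablasts that pattern and the genotype cannot be told apart. Xist, the transcript of the inactive X chromosome, stood at 33.3 to 81.4 FPKM in replicate 1 of the 3 wt populations and at 0.0151 to 0.389 FPKM in the other 9 libraries, so the 2 wt replicates of a population did not come from the same animals. High Xist was thus found in wt libraries alone, so in ko against wt the Xist difference and the genotype are partly confounded.

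The labels of the populations were checked against marker genes. The 6 plasma cell markers summed to 268 to 293 FPKM in wt activated B cells and to 22005.2 to 25764.2 FPKM in wt plasmablasts. The 6 B cell markers summed to 3239.2 to 4017.3 FPKM in wt activated B cells and to 1959.1 to 2111.1 FPKM in wt plasmablasts. Sdc1, which encodes CD138, and Prdm1 were used to sort the cells and are no finding. Markers of other cells were low: 5 macrophage and granulocyte genes summed to 7.89 to 30 FPKM in activated B cells and to 0.136 to 4.34 FPKM in the other populations, 5 T cell genes to at most 9.33 FPKM, 4 natural killer cell genes to at most 6.44 FPKM and 4 dendritic cell genes to at most 24 FPKM. Of these, 3 of 5 macrophage and granulocyte genes, 3 of 5 T cell genes, 3 of 4 natural killer cell genes and 2 of 4 dendritic cell genes stayed below 1 FPKM in every library. Their part in the results below was not tested. In bulk samples, fewer cells of a type and less RNA per cell cannot be told apart.

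Of the 33 genes, 32 reached 1 FPKM in at least 2 libraries and were tested with limma on log2(FPKM + 1) among 11069 genes. Srp54b did not, with 0 to 0.132 FPKM in the 12 libraries. From wt activated B cells to wt plasmablasts most of the machinery rose: 28 of the 32 genes were higher and 1 was lower at an adjusted p below 0.05, where 31% of all tested genes were called higher and 31% lower. The median log2 change of the 32 was 1.73, against -0.01 over all tested genes. Together the 33 genes summed to 2135 and 2283 FPKM in the wt activated B cell libraries and to 11560 and 12220 FPKM in the wt plasmablast libraries, a ratio of means of 5.38. Their share of all FPKM went from 0.51% and 0.506% to 2.03% and 2.1%. In ko cells 27 of 32 were higher and 0 lower, with a median of 1.70. Of all tested genes 31.2% were called higher in ko, and 3422 of 11069 lower. The 27 genes called higher in ko were all among the 28 of wt.

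**Figure D1:**
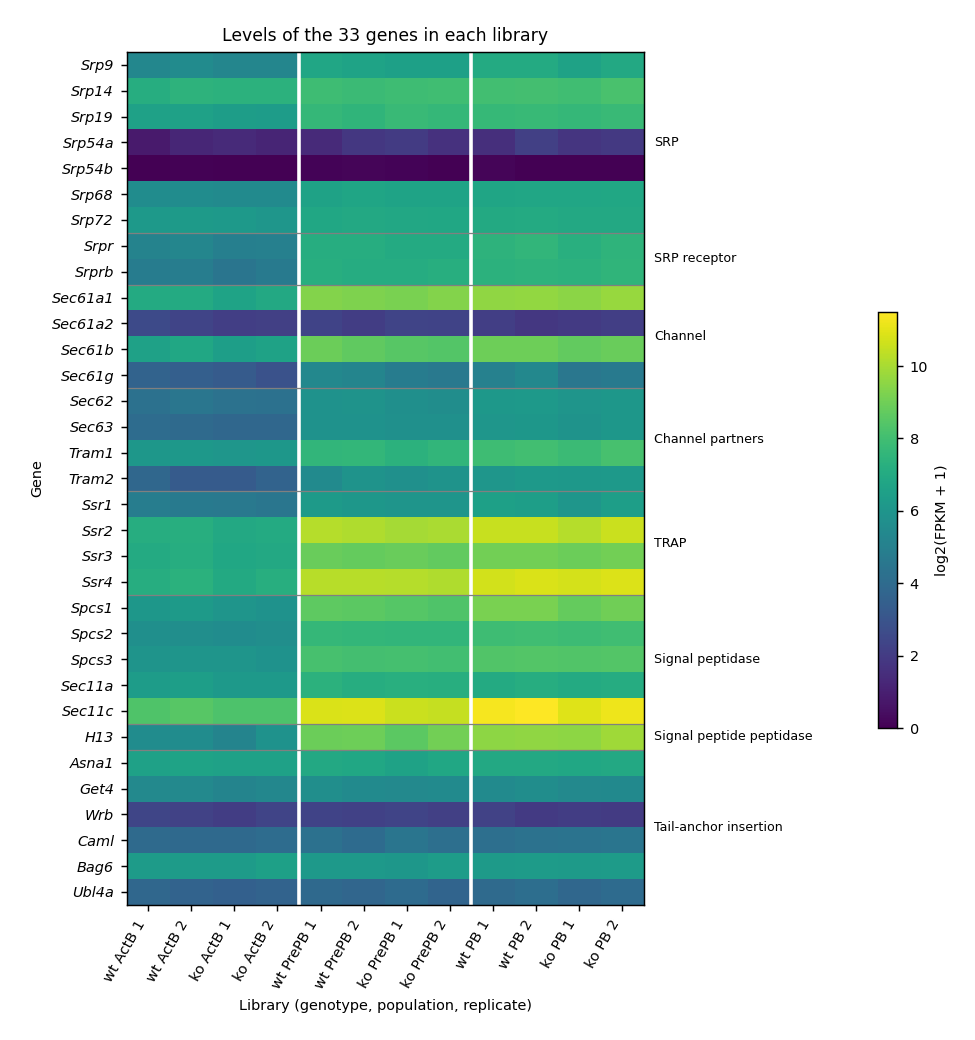
Heat map of log2(FPKM + 1) for the 33 genes (rows, grouped by role) in the 12 libraries (columns, ordered by population and, within it, by genotype and replicate). Most rows brighten from activated B cells to pre-plasmablasts, while Sec61a2 and the tail-anchor insertion genes stay nearly level and Srp54a and Srp54b stay dark.

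The roles differed in size of change. Median log2 changes from wt activated B cells to wt plasmablasts were 0.98 for the SRP genes (6 of 6 tested higher), 2.43 for the SRP receptor (2 of 2), 1.93 for the channel (3 higher, 1 lower of 4), 1.95 for the channel partners (4 of 4), 2.65 for the translocon-associated protein (TRAP) complex (4 of 4) and 2.42 for signal peptidase (5 of 5). Tail-anchor insertion had a median of 0.23, with 3 of 6 genes called higher. These are differences on the log2 scale and no test was made between roles. Rescaling the libraries to equal totals moved the median of all tested genes in this comparison to -0.38 and that of the 32 genes to 1.33, with 24 called higher and 4 lower. The 4 lower genes were Sec61a2, Get4, Wrb and Bag6. Of the 11098 genes tested under that scaling 2136 were called higher and 5817 lower.

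**Figure D2:**
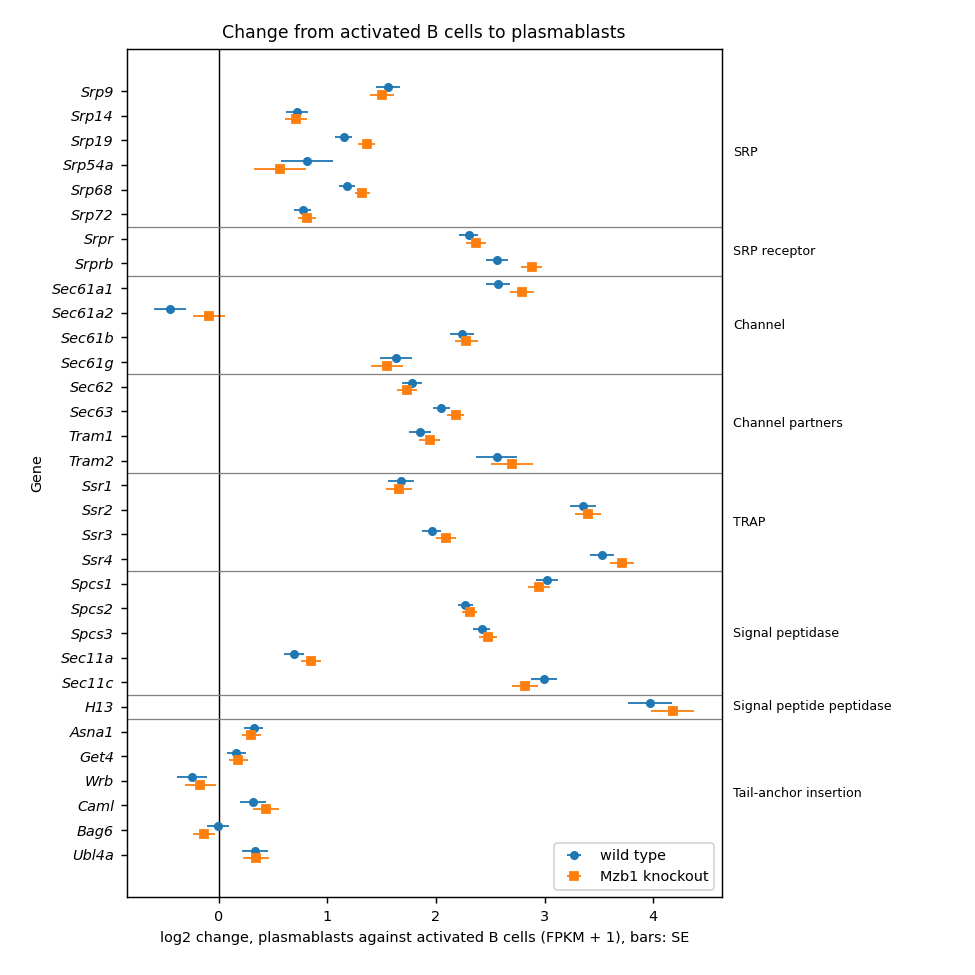
Log2 change with SE from activated B cells to plasmablasts for the 32 tested genes (rows), circles for wt and squares for ko. H13 lies farthest right in both genotypes (3.97 and 4.18), and Sec61a2 farthest left in wt (-0.45).

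Because most of these genes rose together, their promoters were searched for letters bound by factors of the unfolded protein response. RefSeq (GRCm38.p6) promoters, of which the 250 bases before the start were used, were at hand for 25 of the 33 genes (26 promoters). None was at hand for Srp19, Srp68, Sec61a1, Tram1, Ssr2, Spcs3, Sec11c or Caml, several of which rose strongly (below). On both strands, the ER stress elements ERSE and ERSE-II and the core TGACGTGG of the unfolded protein response element were found in 0 of the 26, and in 0.113%, 0.0304% and 0.563% of all 32851 promoters. At shares this low, 0 matches in 26 promoters say little about these genes. The ACGT core CCACGT, chosen in place of a longer form after the other motifs had been fixed, was found in promoters of 8 genes: Srprb, Sec63, Ssr1, Ssr3, Spcs1, Asna1, Get4 and Ubl4a. Get4 has 2 promoters with it, so 9 of the 26 promoters (34.6%) held it, against 9.66% of the 10740 promoters of tested genes and 6.91% of all promoters. Its first 5 letters, CCACG, which every CCACGT also holds, were in 61.5%, 42.3% and 28.3%, and TGACG in 34.6%, 28.1% and 17.8%. These are descriptions of letters, not of binding, and no test was made. Of the 8 genes, the 4 with the largest wt change from activated B cells to plasmablasts are shown, and the other 4 are Ssr1 (1.68) and the little changed Ubl4a (0.33), Asna1 (0.32) and Get4 (0.16). H13 (3.97) and Ssr4 (3.53), which changed most, have a promoter in the table without these letters. The sequences run 5′ to 3′ on the gene's strand and ending at the base before the start, with CCACGT in capitals. They lie at chr14:31001667-31001916 (minus strand) for Spcs1, chr9:103202066-103202315 (minus) for Srprb, chr10:42761246-42761495 (plus) for Sec63 and chr3:65392554-65392803 (minus) for Ssr3.
Spcs1: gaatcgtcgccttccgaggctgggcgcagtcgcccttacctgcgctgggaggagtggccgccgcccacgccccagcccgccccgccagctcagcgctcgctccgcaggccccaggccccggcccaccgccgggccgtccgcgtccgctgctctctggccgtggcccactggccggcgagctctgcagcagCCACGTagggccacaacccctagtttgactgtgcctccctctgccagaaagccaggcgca
Srprb: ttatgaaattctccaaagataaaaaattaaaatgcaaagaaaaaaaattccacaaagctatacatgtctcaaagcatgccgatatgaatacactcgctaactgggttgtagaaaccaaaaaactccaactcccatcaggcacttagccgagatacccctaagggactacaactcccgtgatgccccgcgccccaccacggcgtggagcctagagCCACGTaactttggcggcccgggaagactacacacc
Sec63: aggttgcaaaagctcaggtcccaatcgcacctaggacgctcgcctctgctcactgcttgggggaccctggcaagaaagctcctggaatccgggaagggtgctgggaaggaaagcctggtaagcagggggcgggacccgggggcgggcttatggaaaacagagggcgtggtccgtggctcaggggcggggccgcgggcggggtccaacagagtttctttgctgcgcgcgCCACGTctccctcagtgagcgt
Ssr3: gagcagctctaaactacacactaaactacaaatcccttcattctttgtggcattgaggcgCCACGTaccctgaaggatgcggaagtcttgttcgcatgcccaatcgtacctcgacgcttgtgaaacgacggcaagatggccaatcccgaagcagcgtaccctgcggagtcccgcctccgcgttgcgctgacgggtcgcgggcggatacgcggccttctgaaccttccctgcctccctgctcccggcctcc
The 4 genes differ in change, from 1.96 for Ssr3 to 3.02 for Spcs1, and the copy lies at a different distance before the start in each, from 190 bases for Ssr3 to 22 for Sec63, counted to its far end.

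SRP is an RNA bound by 6 kinds of protein. Srp9 and Srp14 form the end that slows translation, Srp68 and Srp72 hold the middle of the RNA, Srp19 helps the particle assemble, and the SRP54 protein binds the signal sequence. Srp9 stood at 39.2 and 46.4 FPKM in wt activated B cells, 109 and 100 in wt pre-plasmablasts and 128 and 128 in wt plasmablasts. The ko libraries of the same populations gave 38.3 and 37.6, 91.1 and 90.2, and 98.4 and 121 FPKM. The plasmablast libraries of either genotype lay above all activated B cell libraries, and Srp9 had the largest change of the SRP genes, 1.56 (SE 0.11, limma adjusted p = 4.21e-07) in wt. Srp14, its partner, changed least of these genes. It stood at 144 and 171 FPKM in wt activated B cells, 244 and 230 in wt pre-plasmablasts and 258 and 262 in wt plasmablasts, and at 167 and 165, 242 and 253, and 251 and 294 FPKM in ko. Its change in wt was 0.72 (SE 0.10, limma adjusted p = 0.000107), and its wt plasmablast libraries lay above its wt activated B cell libraries. Srp19, Srp68 and Srp72 lay between them, with wt changes of 1.15, 1.18 and 0.77.

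The genes for the SRP54 protein exist in near-identical copies. In GENCODE transcripts the longest open reading frames of Srp54a and Srp54b were 100% identical over 1512 bases, and that of a further copy, Srp54c, 99.6% identical to both. Reads from 1 copy can therefore be counted for another or dropped, and the level of each is uncertain. Srp54a stood at 0.8 and 1.36 FPKM in wt activated B cells, 1.57 and 2.65 in wt pre-plasmablasts and 1.91 and 3.47 in wt plasmablasts, far below the other SRP genes. In ko it gave 1.59 and 1.29, 2.94 and 2.14, and 2.42 and 2.75 FPKM. The wt plasmablast libraries were above the wt activated B cell libraries (0.81, SE 0.24, limma adjusted p = 0.0135), a call lost without wt activated B cell replicate 1 or wt plasmablast replicate 2, under equal totals (0.56, adjusted p = 0.0577) and with no filter. In ko the change was 0.56 (adjusted p = 0.0671).

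The SRP receptor has a soluble-domain subunit, Srpr, which meets SRP, and a membrane subunit, Srprb, which holds it at the ER. Srprb stood at 27 and 28.4 FPKM in wt activated B cells, 147 and 138 in wt pre-plasmablasts and 164 and 172 in wt plasmablasts. Its ko libraries gave 20.8 and 24.7, 136 and 148, and 165 and 183 FPKM. Srpr stood at 34.7 and 37.2, 144 and 144, and 174 and 187 FPKM in the wt populations and at 30.2 and 31.4, 131 and 129, and 150 and 178 FPKM in ko. For both subunits no activated B cell library reached the level of any pre-plasmablast or plasmablast library. The wt changes to plasmablasts were 2.56 for Srprb (SE 0.10, limma adjusted p = 6.27e-09) and 2.30 for Srpr (SE 0.09, limma adjusted p = 6.67e-09), and both exceeded the changes of all 6 tested SRP genes.

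The channel itself is a trimer of an alpha, a beta and a gamma subunit. Sec61a1, the pore-forming alpha subunit, stood at 128 and 130 FPKM in wt activated B cells, 654 and 610 in wt pre-plasmablasts and 761 and 786 in wt plasmablasts. In ko its libraries gave 102 and 123, 585 and 649, and 725 and 839 FPKM. Every plasmablast library was above every pre-plasmablast library, and those were above the activated B cell libraries; the wt change from activated B cells to plasmablasts was 2.57 (SE 0.11, limma adjusted p = 1.44e-08). The second alpha gene, Sec61a2, went the other way in wt. It stood at 4.93 and 4.09 FPKM in wt activated B cells, 4.01 and 3.19 in wt pre-plasmablasts and 3.45 and 2.64 in wt plasmablasts, a change of -0.45 (SE 0.15, limma adjusted p = 0.0211). In ko it stood at 3.35 and 3.49, 4.06 and 3.98, and 2.92 and 3.4 FPKM, where the activated B cell and plasmablast libraries overlapped (-0.09, adjusted p = 0.615). The wt call was lost when wt replicate 1 was left out of all 3 populations, with wt activated B cell replicate 1 or wt plasmablast replicate 2 left out alone, with no filter, or with the compared groups alone; the difference between the genotypes' changes was 0.36 (adjusted p = 1).

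Sec61b, the beta subunit, stood at 95.3 and 113 FPKM in wt activated B cells, 476 and 412 in wt pre-plasmablasts and 490 and 495 in wt plasmablasts, and at 84.7 and 96.8, 362 and 345, and 430 and 460 FPKM in ko. Sec61g, the gamma subunit, stood at 11.6 and 10.3, 39.8 and 36.1, and 32.2 and 39.8 FPKM in wt and at 8.81 and 6.39, 27.8 and 24.2, and 22.9 and 25.1 FPKM in ko. Both were called higher in plasmablasts than in activated B cells, with wt changes of 2.24 and 1.63. Although the subunits form a trimer, their levels per length were far apart: the ratio of Sec61b to Sec61g was 9.59 ± 1.95 in wt activated B cells and 13.8 ± 1.96 in wt plasmablasts (mean ± SD, n = 2). No test was made of these ratios, and whether reads of either gene were lost or shared with copies was not checked.

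Channel partners all rose. Sec62 and Sec63 form a complex beside the channel that serves chains translocated after synthesis, and Tram1 and Tram2 are membrane proteins next to the channel. Tram2 stood at 13.5 and 8.75 FPKM in wt activated B cells, 44.8 and 58.6 in wt pre-plasmablasts and 63.8 and 74.6 in wt plasmablasts, and at 8.84 and 11.6, 52.8 and 58.3, and 68.5 and 74.4 FPKM in ko. Tram1 stood at 67.3 and 69, 188 and 192, and 239 and 258 FPKM in wt and at 63.8 and 66.7, 165 and 188, and 230 and 280 FPKM in ko. In both genes the 3 populations did not overlap within a genotype. Tram2 changed by 2.56 (SE 0.19, limma adjusted p = 8.23e-07) and Tram1 by 1.85 (SE 0.10, limma adjusted p = 7.96e-08) in wt, and Tram1 remained the more abundant per length in all 12 libraries. Sec62 had the smallest change of these partners. It stood at 18.5 and 21.5, 57 and 59, and 68.2 and 73.7 FPKM in wt and at 19.3 and 18.3, 51.8 and 48.6, and 62.7 and 67.2 FPKM in ko, again with no overlap between populations, and its wt change was 1.78 (SE 0.09, limma adjusted p = 3.84e-08). Sec63 changed by 2.05.

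TRAP sits beside the channel and helps some signal sequences start their passage. Ssr4, its delta subunit, stood at 144 and 160 FPKM in wt activated B cells, 1222 and 1224 in wt pre-plasmablasts and 1680 and 1845 in wt plasmablasts. The ko libraries gave 127 and 145, 1182 and 1132, and 1699 and 1884 FPKM. Populations were fully separate, and the wt change of 3.53 (SE 0.11, limma adjusted p = 1.86e-09) was an 11.5-fold difference on the FPKM + 1 scale. Ssr1, the alpha subunit, changed least of the 4. It stood at 28.4 and 25.8, 76.4 and 66.6, and 92.3 and 85.4 FPKM in wt and at 23.8 and 22, 61.9 and 63, and 64.9 and 84.8 FPKM in ko. Its wt change was 1.68 (SE 0.12, limma adjusted p = 6.11e-07). As a result the ratio of Ssr4 to Ssr1 per length went from 5.06 and 6.2 in the wt activated B cell libraries to 18.2 and 21.6 in the wt plasmablast libraries, without overlap. Ssr2 (wt change 3.35) followed Ssr4, and Ssr3 (1.96) followed Ssr1.

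Signal peptidase joins a catalytic subunit, either Sec11a or Sec11c, to the accessory subunits Spcs1, Spcs2 and Spcs3. Sec11c was the most abundant of the 33 genes per length in both wt activated B cells and wt plasmablasts. It stood at 322 and 367 FPKM in wt activated B cells, 1856 and 1905 in wt pre-plasmablasts and 2607 and 2883 in wt plasmablasts, and at 306 and 307, 1510 and 1452, and 1966 and 2384 FPKM in ko. Sec11a stood at 81.1 and 86.8, 168 and 142, and 131 and 141 FPKM in wt and at 74.4 and 73.6, 151 and 145, and 130 and 139 FPKM in ko. Sec11c separated the 3 populations fully, while Sec11a was higher in both reporter-positive populations than in activated B cells and its plasmablast libraries all lay below the pre-plasmablast libraries. The wt changes from activated B cells to plasmablasts were 2.99 (SE 0.12, limma adjusted p = 8.92e-09) for Sec11c and 0.69 (SE 0.09, limma adjusted p = 7.3e-05) for Sec11a. From pre-plasmablasts to plasmablasts Sec11a changed by -0.18 in wt and was not called in either genotype; under equal totals it was called lower in both (-0.34, adjusted p = 0.0258 in wt, and -0.29, adjusted p = 0.0464 in ko).

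The ratio of Sec11c to Sec11a was 3.97 and 4.23 in the wt activated B cell libraries, 11 and 13.5 in the wt pre-plasmablast libraries and 19.9 and 20.4 in the wt plasmablast libraries. In ko it was 4.11 and 4.17, 9.98 and 10, and 15.2 and 17.2. Each population was apart from the others in both genotypes. The ko ratios lay below the wt ones in pre-plasmablasts and in plasmablasts, and overlapped them in activated B cells. No test was made of these ratios. The coding sequences of the pair were 79% identical over 537 aligned bases, those of Sec61a1 and Sec61a2 79.5% over 1422, and those of Tram1 and Tram2 69.8% over 1054, so these pairs share less sequence than the Srp54 copies.

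**Figure D3:**
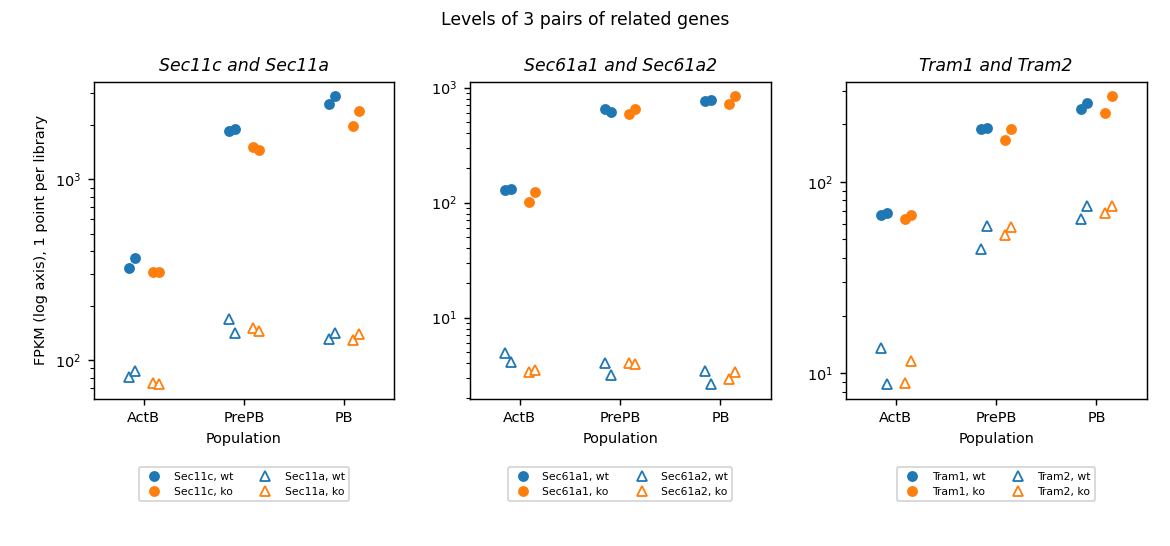
FPKM (log axis) of Sec11c and Sec11a, Sec61a1 and Sec61a2, and Tram1 and Tram2 in activated B cells (ActB), pre-plasmablasts (PrePB) and plasmablasts (PB), 1 point per library, in blue for wt and orange for ko. Sec11c and Sec61a1 climb away from their partners, while Tram1 and Tram2 climb together.

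Among the accessory subunits, Spcs1 changed most. It stood at 66.2 and 75 FPKM in wt activated B cells, 403 and 386 in wt pre-plasmablasts and 579 and 578 in wt plasmablasts, and at 63.5 and 57.4, 349 and 319, and 440 and 508 FPKM in ko, with the populations fully apart. Its wt change was 3.02 (SE 0.10, limma adjusted p = 2.77e-09), beside 2.27 for Spcs2 and 2.42 for Spcs3. H13, signal peptide peptidase, cuts the signal sequences left in the membrane after signal peptidase has acted. It stood at 47.4 and 47.9 FPKM in wt activated B cells, 482 and 498 in wt pre-plasmablasts and 743 and 778 in wt plasmablasts. The ko libraries gave 35.4 and 56.5, 390 and 524, and 741 and 922 FPKM, with a wider spread within pairs than in wt. H13 had the largest change of the 32 genes in wt, 3.97 (SE 0.20, limma adjusted p = 3.6e-08), a 15.6-fold difference on the FPKM + 1 scale.

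Genes of tail-anchor insertion changed little. Bag6, Ubl4a and Get4 form the complex that receives the finished chain, Asna1 (the TRC40 ATPase) carries it, and Wrb and Caml are its receptor in the ER membrane. Ubl4a had the largest change of the 6. It stood at 13.2 and 11.5 FPKM in wt activated B cells, 14.2 and 12.7 in wt pre-plasmablasts and 14.8 and 16.7 in wt plasmablasts, and at 10.6 and 11.5, 15 and 12.2, and 13.5 and 15.1 FPKM in ko. Bag6 had the smallest, with 78.4 and 77.4, 71.7 and 72, and 76.4 and 78.4 FPKM in wt and 79.4 and 91.2, 66.3 and 79.5, and 76.6 and 78.1 FPKM in ko. The wt plasmablast libraries of Ubl4a lay above those of activated B cells, and those of Bag6 overlapped. Changes of 0.33 for Ubl4a, 0.32 for Asna1 and 0.31 for Caml were called higher (limma adjusted p = 0.0371, 0.00804 and 0.0493). Their direction turned under equal totals, to -0.06, -0.09 and -0.08, with no call (adjusted p = 0.727, 0.296 and 0.6). Get4 (0.16), Wrb (-0.25) and Bag6 (-0.01) were not called. Under equal totals Get4 (-0.25), Wrb (-0.57) and Bag6 (-0.42) were called lower (limma adjusted p = 0.0155, 0.00777 and 0.00137). That scaling called 52.4% of all tested genes lower, so these calls are near the general share. The median of the 6 genes was then -0.17, beside -0.38 over all tested genes.

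Most of the rise lay in the first step. From wt activated B cells to wt pre-plasmablasts 25 of 32 genes were called higher and 0 lower (27.1% of all tested genes were called higher), with a median log2 change of 1.48 and a highest of 3.33, for H13. From wt pre-plasmablasts to wt plasmablasts 7 were called higher and 0 lower, with 5.02% of all tested genes called higher and a median of 0.23. The 7 were Srpr (0.32), Tram1 (0.38), Ssr4 (0.53), Spcs1 (0.55), Spcs2 (0.32), Spcs3 (0.30) and Sec11c (0.54). Of these, 4 encode signal peptidase subunits. Equal totals left 3 higher and 1 lower (Sec11a) and moved the median of the 32 to 0.07, that of all tested genes being -0.13. That scaling called 2.85% of all tested genes higher and 10.3% lower in this step. None was called without wt replicate 1 in all 3 populations, and 0 or 1 with any 1 library of the step left out. For fits with libraries left out, in either genotype, the share of all tested genes called is not given here. Whether the lost calls are particular to the 32 genes was therefore not tested. The 2 steps share the pre-plasmablast libraries. In ko the first step also gave 25 genes higher and 0 lower (27.1% of all tested genes were called higher; median 1.41), and 24 of the 25 were the same genes as in wt. The second gave 9 higher and 0 lower (6.57% of all tested genes were called higher; median 0.24), namely the same 7 and also Sec62 (0.36) and H13 (0.87). Without 1 ko library of the step, the count fell to as low as 1, for ko plasmablast replicate 2.

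**Figure D4:**
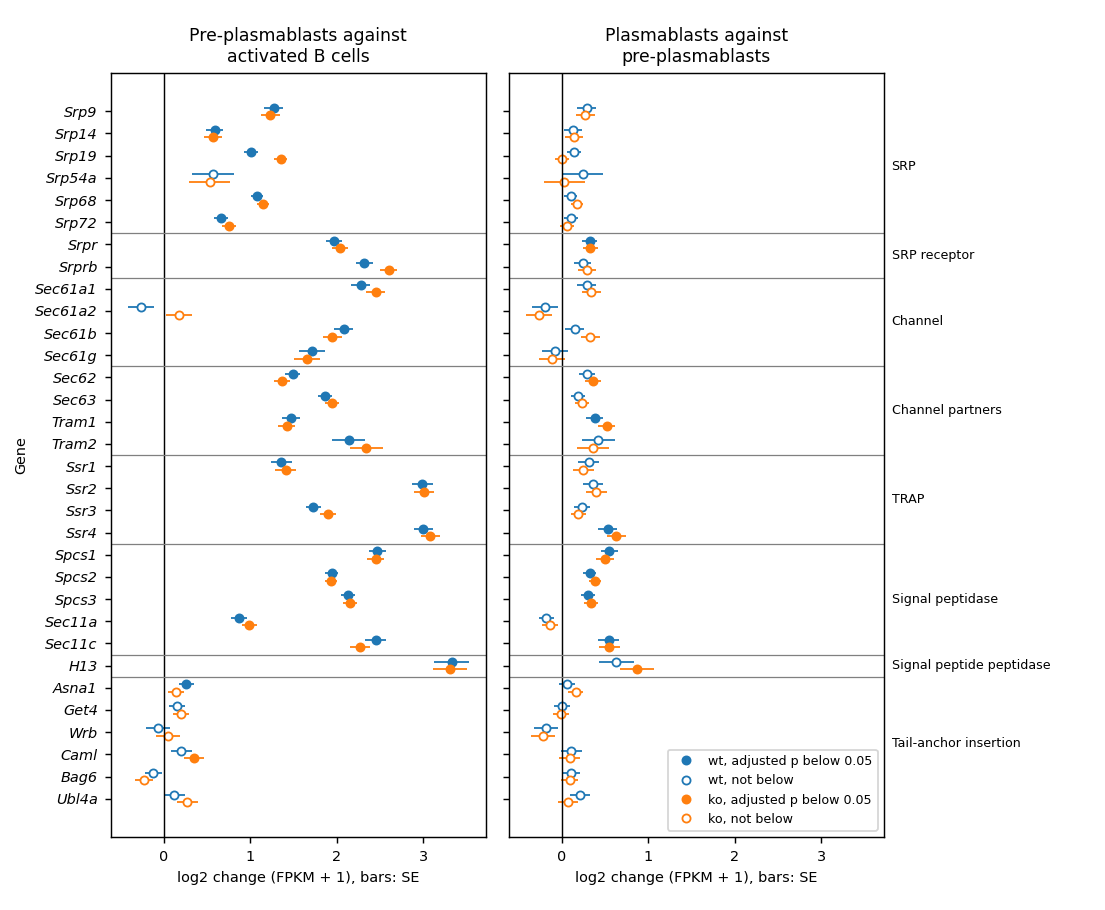
Log2 change with SE for the 32 tested genes (rows) from activated B cells to pre-plasmablasts (left) and from pre-plasmablasts to plasmablasts (right), in blue for wt and orange for ko. Filled points were called at an adjusted p below 0.05; changes on the left reach 3.33 and on the right 0.87.

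The ko libraries were next set against the wt libraries, population by population. Some sums of cell markers differed in this comparison. The 6 B cell markers summed to 2484.9 to 2497.4 FPKM in ko plasmablasts against 1959.1 to 2111.1 in wt, and to 3546.3 to 3736.3 in ko pre-plasmablasts against 2877.4 to 2954.9 in wt, while in activated B cells the ranges overlapped (3738.5 to 4214.4 and 3239.2 to 4017.3). Of these, Pax5, a B cell identity factor, was called higher in ko plasmablasts (1.17, limma adjusted p = 0.0031). The 6 plasma cell markers summed to 8609.6 to 8666.5 FPKM in ko pre-plasmablasts against 10780.1 to 11715.3 in wt, and overlapped in plasmablasts (18978.6 to 22155.7 and 22005.2 to 25764.2). Jchain made up most of these sums, with 6670 and 6790 FPKM in ko pre-plasmablasts and 8740 and 9630 in wt. Of the 6 changes in pre-plasmablasts, 4 were below 0 and 2 above (Prdm1, 0.25, and Irf4, 0.12), and none was called. The part of these markers in the differences below was not tested. None of the 32 genes was called in activated B cells, pre-plasmablasts or plasmablasts by limma, where 0.0542%, 0.117% and 0.407% of all tested genes were called. At an unadjusted p below 0.05 the counts were 6, 5 and 3 of 32, beside 8.07%, 15% and 16% of all tested genes. The median log2 changes of ko against wt were -0.16, -0.07 and -0.04, beside 0.01, 0.01 and 0.03 over all tested genes, and 28, 24 and 20 of the 32 changes were below 0. Rescaling to equal totals turned the last 2 medians to 0.02 and 0.06 and left the first at -0.17, so their sign depends on the scaling. The medians over all tested genes were then 0.00, 0.09 and 0.12. Under both scalings the median of the 32 genes lay below that of all tested genes in each population. For all 32 genes in each population the 95% interval of the change lay within 1 log2 unit of 0, and for 26 of 32 within 0.5. The lowest bounds were -0.81, -0.86 and -0.88, each for Sec61g, and the highest were 0.78 and 0.74 for Srp54a and 0.56 for H13.

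Sec61g had the lowest p of the 32 genes in all 3 populations. The ko libraries, with the values given above, all lay below the wt libraries of the same population. The changes were -0.48, -0.53 and -0.56 (SE 0.15 each), with limma adjusted p = 0.447, 0.164 and 0.122. Leaving out the ko library of the second fragment pattern gave -0.28 in activated B cells and -0.43 in pre-plasmablasts, and a term for the pattern gave -0.33, -0.38 and -0.26. In plasmablasts the pattern and the genotype coincide, so the last value rests on the pattern difference between ko libraries of the other populations. Sec11c changed by -0.17, -0.34 and -0.34 (adjusted p = 0.792, 0.228 and 0.213) and Spcs1 by -0.22, -0.24 and -0.29 (adjusted p = 0.623, 0.295 and 0.199). Both were lower in every ko library than in the wt libraries of its population, but none of these differences passed the test.

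**Figure D5:**
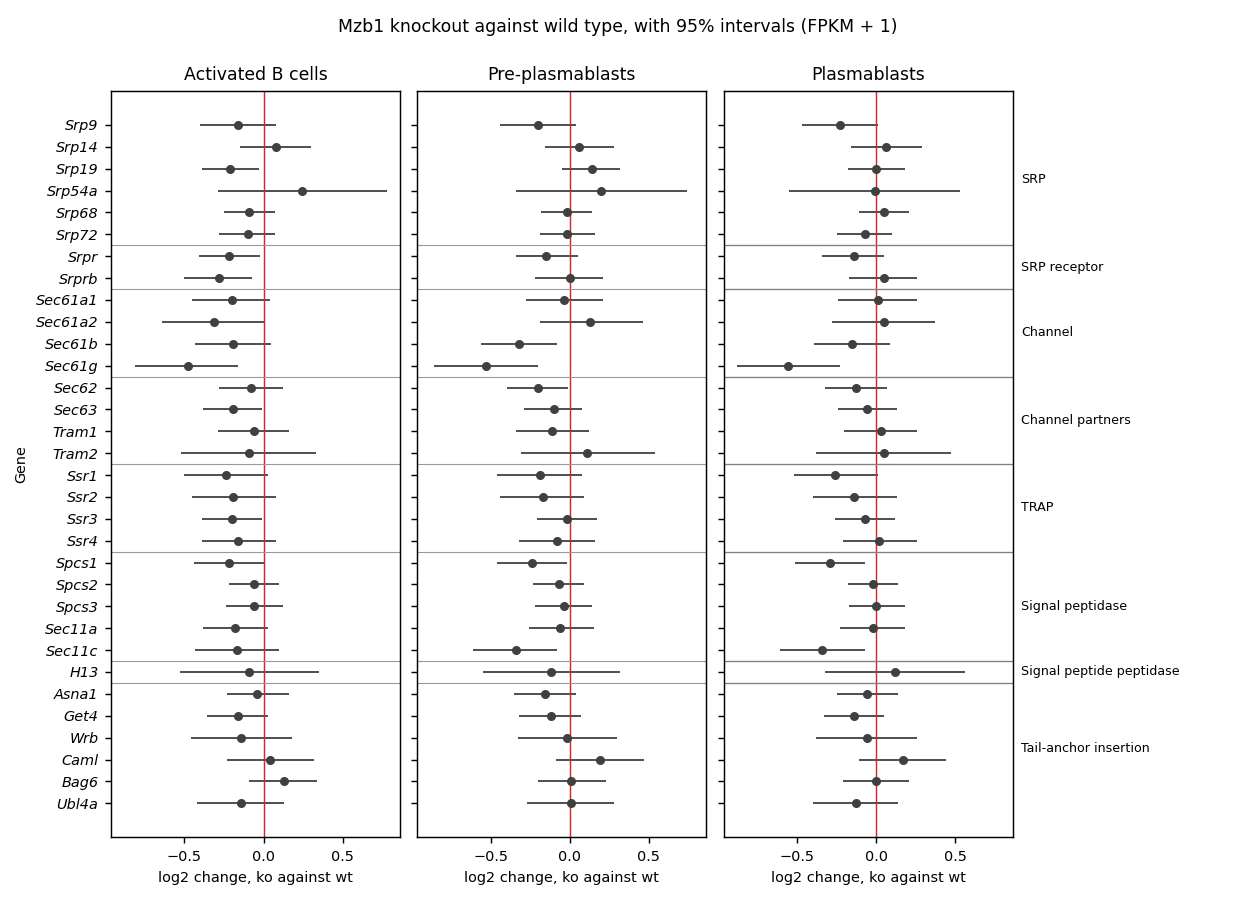
Log2 change of ko against wt with 95% intervals for the 32 tested genes (rows) in activated B cells, pre-plasmablasts and plasmablasts. Points lie between -0.56 and 0.24, Sec61g lies farthest left in each panel, and no gene passed the adjusted threshold.

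Whether the knockout effect differed between populations was tested directly. None of the 32 genes was called by limma for pre-plasmablasts against activated B cells (0.0361% of all tested genes were called), plasmablasts against pre-plasmablasts (0%) or plasmablasts against activated B cells (0.0452%), and 1, 0 and 1 genes had an unadjusted p below 0.05, beside 3.57%, 2.46% and 4.15% of all tested genes. Srp19 had the lowest p in the first and second of these. It stood at 94.6 and 93.5, 199 and 182, and 206 and 214 FPKM in the wt populations and at 82.9 and 79.7, 220 and 199, and 202 and 218 FPKM in ko. The ko libraries were below wt in activated B cells and at or above wt in pre-plasmablasts. The differences of effects were 0.34 (SE 0.12, limma adjusted p = 1) and -0.14 (adjusted p = 1). Srprb had the lowest p in the third, with 0.33 (SE 0.14, adjusted p = 1).

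The genes around this machinery were described from 5 further lists, to be read beside the 31% of all tested genes called higher and the 31% called lower in this comparison. All 12 oligosaccharyltransferase genes, whose complex adds sugars to chains as they emerge from the channel, were called higher in wt plasmablasts than in activated B cells (median 2.15), led by p by Ddost (3.32), Stt3a (2.46), Rpn1 (2.84) and Rpn2 (2.79). A mixed list of 22 translocon partners, ER chaperones and cytosolic factors had 19 genes called higher and 0 lower (median 1.21). First by p were Dnajb9 (2.95), Dnajb11 (2.60), Ckap4 (4.61) and Dnajc3 (2.86). The cytosolic factors Naca (-0.51), Btf3 (-0.56) and Sgta (-0.05) were not called. The 19 include Srp54c (0.66), whose reads can be counted for another copy. The ER membrane complex, which inserts other kinds of membrane proteins, was mixed: 5 of 10 genes were higher, among them Emc7 (1.59), Emc10 (0.95), Emc4 (0.89) and Mmgt1 (0.56), and 3 were lower (median 0.25). Of 8 genes of the cytosolic chaperonin, which folds proteins that stay in the cytosol, 0 were higher and 7 lower (median -0.54), with Cct4 (-0.83), Cct8 (-0.70), Cct6a (-0.63) and Tcp1 (-0.56) first by p. All 8 regulators of the ER stress response and of plasma cell identity were called higher (median 2.25), including Xbp1 (4.56), Creb3l2 (3.82), Irf4 (1.98) and Prdm1 (3.38), the last of which the sort selects for. Higher in ko plasmablasts than ko activated B cells were 12 of 12 oligosaccharyltransferase genes, 18 of 22 mixed-list genes and 8 of 8 regulators. Of the mixed list, 2 genes were called lower (Btf3, -0.80, and Naca, -0.85). The ER membrane complex had 5 higher and 2 lower of 10, and the chaperonin 7 of 8 lower. Of all tested genes, 31.2% were called higher in this ko comparison, and 3422 of 11069 lower. Under equal totals, which called 19.2% of tested genes higher and 52.4% lower, the wt counts were 11 of 12, 16 of 22 (with 3 lower) and 8 of 8 higher, 3 higher and 3 lower of 10, and 8 of 8 lower, and the median of the ER membrane complex turned to -0.13. Xbp1, a transcription factor of the unfolded protein response, stood at 102 ± 3.87, 1573.8 ± 7.78 and 2440.6 ± 110 FPKM (mean ± SD, n = 2) in wt and at 81.6 ± 7.26, 1355.9 ± 54.4 and 2022.2 ± 13 FPKM in ko.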

How the data were processed

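Per the labels, oligo-dT beads enriched mRNA, and the TruSeq libraries kept strand. The authors deposited FPKM per gene symbol in 1 file for each library. Per the submitters' processing notes, the tools were Cuffnorm 2.2.1, Cufflinks 2.2.1, Cuffdiff, TopHat2 2.0.14 and bcl2fastq, on the mm9 build; the annotation, the scaling and any filter are not given in the sources used here. No counts were used, so the absolute depth is unknown. Values were taken as log2(FPKM + 1), and genes at 1 FPKM or more in at least 2 libraries were fitted with limma 3.58.1 (limma-trend, R 4.3.3), with 1 coefficient per group and 6 residual degrees of freedom. Tests were two-sided, with Benjamini-Hochberg adjustment over all 11069 genes and calls below 0.05. A fold on the FPKM + 1 scale understates the change of low genes. The method was also run on simulated data with independent noise. Those data held no fragment pattern, Xist or scaling difference, so they cannot show how such differences affect the calls. Figures were drawn with matplotlib 3.10.9.

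The 33 genes and the further lists were chosen with earlier results of these data known. The rule for values in every library took, in each role, the genes with the largest and smallest change from wt activated B cells to wt plasmablasts, related pairs, genes called lower, and the gene with the lowest p where a knockout comparison called none. Promoter sequences are RefSeq's (GRCm38.p6), and paralogs were aligned with Biopython 1.88. The alternatives were quantile normalization, equal totals without small RNA genes, a 0.1 pseudocount, a 5 FPKM filter or none, fitting the compared groups by themselves, a fragment pattern term, a replicate block, and leaving out wt replicate 1 or each library. Restricting the count to the 30 genes listed under their own symbol, and the CCACGT search, were added after the data had been seen. The fragment pattern is the ratio that genes below 0.5 FPKM share between libraries, with a log2 tolerance of 0.002.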

Additional observations from a re-analysis of the deposited data

How the results depend on the processing

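Over the alternatives, 5340 member values were recomputed: 5145 kept their side of the threshold, and 325 of these, called under neither setting, changed sign (51 of them under equal totals). Of the rest, 155 lost a call, 36 gained one and 4 turned with a call (under equal totals, wt plasmablasts against activated B cells: Asna1 -0.09, Caml -0.08, Get4 -0.25 and Ubl4a -0.06). Counts of called members stayed within 1.5 times in the 14 alternatives of each comparison of activated B cells with a later population, and at 0 for ko against wt and for the 3 differences between effects. In wt plasmablasts against pre-plasmablasts, 7 calls became 2 with no filter, 1 with quantile normalization, 4 with equal totals (3 higher, 1 lower), 0 without wt replicate 1, and 0 to 1 with any 1 library left out. In ko, 9 became 3 with no filter, 5 with quantile normalization, 0 with the compared groups alone, 3 without wt replicate 1, and 1 to 8 with 1 library left out. The cause was not tested. Apart from equal totals in wt (above), the share of all tested genes called under these alternatives is not given here. With a replicate block the counts of that step were 11 in wt and 12 in ko. Same-numbered libraries of wt and ko correlated in their deviations at -0.11, -0.08 and -0.05. These values gave no sign of pairing across genotypes but cannot exclude it, since a pair of wt populations that shared the Xist pattern gave only 0.05. Between populations of 1 genotype the correlations were 0.05, 0.24 and 0.32 in wt and 0.29, 0.11 and 0.1 in ko, and wt replicate 1 had high Xist in all 3 populations, a hint that numbers may be shared within a genotype; the labels do not say so. Low levels limit Srp54a, Srp54b, Sec61a2 and Wrb, which lay below 5 FPKM, most; with 2 libraries a group, the median half-width of a member's 95% interval was 0.23 log2 units.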

Other observations

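The order of the 33 genes by level per length also differed between populations. In wt activated B cells Sec11c was first (345 FPKM), then Srp14 (158), Ssr4 (152) and Ssr2 (144), and H13 was in place 17. In wt plasmablasts Sec11c (2745 FPKM), Ssr4 (1762), Ssr2 (1477) and Sec61a1 (774) led, H13 was in place 5 and Srp14 in place 10. Sec61g was in place 29 and 27 of 33, far from Sec61a1 and Sec61b. The groups hold 2 libraries each, and no test was made of these places.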
